A study of Mus musculus with 3 samples.

Results

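The genes described here are 7 complement components and regulators, C1qa, C1qb, C1qc, C2, C3, C4b and Serping1. They were chosen by symbol from a list made with earlier results of these data known. All 7 were among the 17992 symbols counted in 3 mouse brain libraries. AGNHW, short for Angong Niuhuang Wan, is a preparation of traditional Chinese medicine, and the dose of its group was 3 mg/g/d. Vehicle is the model of middle cerebral artery occlusion, a blockade used to study stroke, and sham is its control. Whether the AGNHW mice were occluded too is left unsaid by the labels. All mice were adult, of genotype WT on C57BL/6. The sources used here do not give the brain region, the time of sampling or how many mice made up a library.

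Complement is a cascade of plasma and tissue proteins that tags particles and cells for uptake and can pierce membranes. In the classical pathway the recognition molecule C1q, built of chains encoded by C1qa, C1qb and C1qc, activates proteases that cleave C4 and C2. The fragments form an enzyme that cleaves C3, the central component, while the C1 inhibitor encoded by Serping1 blocks the proteases. In the brain C1q is made mainly by microglia, whereas C4b, C3 and Serping1 are known from reactive astrocytes and from cells of vessels and meninges. C1q and C3 also tag synapses that microglia remove.

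The libraries held 18184691 counts for AGNHW, 15718594 for vehicle and 18286151 for sham, with 1 library per group and no replicate. Levels below are CPM, read counts relative to the library total after trimmed-mean (TMM) scaling, and ratios carry a 95% interval that covers counting error only. A gene was called higher or lower when its ratio passed 1.5-fold, its mean was at least 1 CPM and its interval excluded 1, a description of these libraries with no test of the conditions. Between vehicle and sham 22.8% of 15558 compared genes passed this rule, with 1348 higher and 2207 lower (890 and 2836 with plain CPM). Between AGNHW and vehicle 6.57% passed, with 624 higher and 398 lower (808 and 309 with plain CPM), and between AGNHW and sham 8.79% passed. The 3 comparisons share libraries and are not independent of each other. The vehicle library stood apart in pituitary transcripts, whose 7 counted genes summed to 4.60 CPM in AGNHW, 3745 CPM in vehicle and 4.41 CPM in sham. Cga was at 0 in AGNHW, and Gh, Prl and Ghrhr were at 0 in sham. The log2 ratios also followed transcript length and GC content, which explained 28.8% of their variance for AGNHW over vehicle, 50.02% for vehicle over sham and 40.6% for AGNHW over sham. Each ratio of a member is therefore also given after correction for this trend where the correction changes its direction or its side of the rule. The label brain was checked by neuronal markers, which were present in every library, with 8 genes summing to 6539 CPM in AGNHW, 6777 CPM in vehicle and 6852 CPM in sham.

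Per length of transcript, the C1q chains were the most abundant members by far and C3 the least. C1qa stood at 71.2, 72.3 and 56.0 CPM per kb in AGNHW, vehicle and sham. C1qb stood at 45.4, 48.3 and 45.1 CPM per kb in the same libraries, and C1qc at 46.0, 48.7 and 44.0. Serping1 had 7.22, 8.40 and 5.92 CPM per kb and C4b 6.68, 6.21 and 6.25. C2 came to 1.02, 0.996 and 0.423 CPM per kb, and C3 to 0.299, 0.282 and 0.228. In each library C1qa led, and the levels of C1qb and C1qc could not be told apart, with a ratio per length of C1qc to C1qb of 1.01 (0.924 to 1.11) in AGNHW. Serping1 and C4b were likewise inside counting error of each other in AGNHW and sham, but not in vehicle, where Serping1 was 1.35 times C4b per length (1.15 to 1.59). That ratio was not corrected for the length and GC trend. The fitted trend ratios for vehicle over sham were 1.23 for Serping1 and 1.03 for C4b. C2 exceeded C3 per length 3.40 times in AGNHW (2.10 to 5.62) and 3.54 times in vehicle (2.05 to 6.25), while in sham the ratio of 1.86 had an interval of 0.971 to 3.54.

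**Figure D1:**
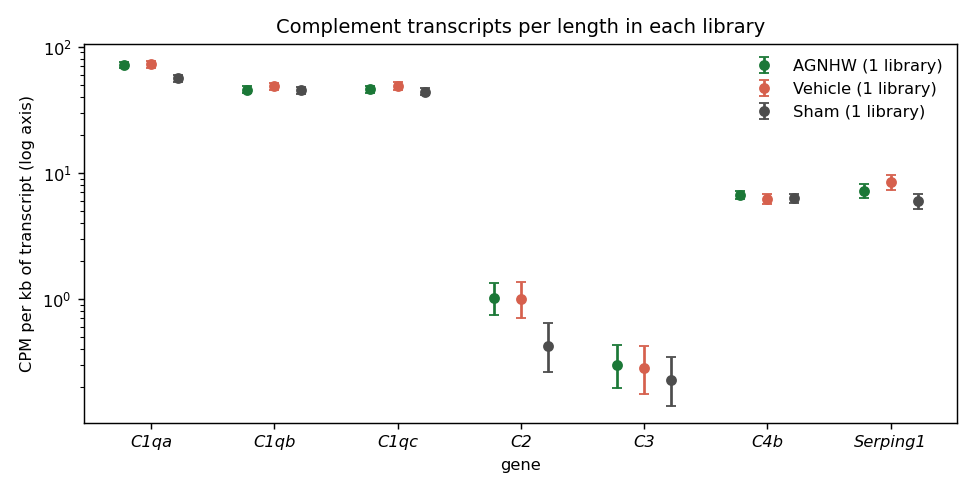
Level of each of the 7 complement genes in CPM per kb of transcript, on a log axis, in the AGNHW, vehicle and sham libraries. Points are single libraries and bars are 95% counting intervals. C1q chains sit between 44.0 and 72.3 CPM per kb, and C3 sits below 0.3 in all 3 libraries.

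C1qb and C1qc lie beside C1qa on chromosome 4, and the promoters of C1qb and C1qc are shown because these neighbours had close levels in every library. RefSeq promoter entries were found for 3 of the 7 members. Each sequence runs 5′ to 3′ on the gene's strand, from 250 bases before to 50 after the gene's start. The capitals mark AGGAAGT, read on either strand, a core letter string of ETS factors such as the myeloid factor PU.1. In C1qb and C1qc it reads as its reverse complement.
C1qb promoter, GRCm38.p6, chr4:136886151-136886450, minus strand: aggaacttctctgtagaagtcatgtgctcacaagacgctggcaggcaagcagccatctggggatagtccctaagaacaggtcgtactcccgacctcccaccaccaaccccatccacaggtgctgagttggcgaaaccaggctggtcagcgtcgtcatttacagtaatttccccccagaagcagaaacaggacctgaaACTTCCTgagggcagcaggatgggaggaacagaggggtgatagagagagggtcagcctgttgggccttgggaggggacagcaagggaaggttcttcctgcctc
C1qc promoter, GRCm38.p6, chr4:136892865-136893164, minus strand: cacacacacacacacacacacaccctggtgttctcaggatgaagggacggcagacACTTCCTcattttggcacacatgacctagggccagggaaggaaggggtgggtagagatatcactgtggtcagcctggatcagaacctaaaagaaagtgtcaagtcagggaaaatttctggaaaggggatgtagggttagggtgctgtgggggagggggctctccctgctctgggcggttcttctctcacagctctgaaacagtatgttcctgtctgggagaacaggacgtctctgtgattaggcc
The string begins 53 bases before the start in C1qb and 195 bases before it in C1qc, and 9.35% of 32851 mouse promoters of this length hold it on either strand. It was chosen after the sequences were read. The string TTCNNNGAA of STAT factors, held by 8.30% of promoters, is not in either window, nor is that of the interferon-stimulated response element, held by 3.44%. A match describes letters only and shows no binding.

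Transcripts of the C1q chains differed little between the libraries, and none of the chains passed the size rule in any comparison. C1qa had 1353 counts in AGNHW, 1144 in vehicle and 1095 in sham, or 74.1, 75.2 and 58.2 CPM. Thus C1qa was close in AGNHW and vehicle and lowest in sham. C1qb had 903 counts in AGNHW, 800 in vehicle and 923 in sham, or 49.4, 52.6 and 49.1 CPM. C1qc had 1010, 891 and 996 counts in the same libraries, or 55.3, 58.6 and 52.9 CPM. For both chains the vehicle value was the top one by a small margin, and all 3 libraries lay within a narrow band.

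For vehicle over sham the ratio of C1qa was 1.29 (1.19 to 1.41), that of C1qb 1.07 (0.974 to 1.18) and that of C1qc 1.11 (1.01 to 1.21). Genes of the same length and GC content had a fitted ratio of 1.53 for C1qa, 1.504 for C1qb and 1.475 for C1qc. After correction the ratios turned to the other side of 1, with 0.845 for C1qa (0.778 to 0.919), 0.713 for C1qb (0.648 to 0.785) and 0.750 for C1qc (0.685 to 0.822). The direction of C1q between vehicle and sham thus depended on this correction, and none of the corrected ratios passed 1.5-fold either.

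For AGNHW over vehicle the ratios were 0.985 for C1qa (0.910 to 1.07), 0.9401 for C1qb (0.854 to 1.04) and 0.944 for C1qc (0.862 to 1.03). All 3 intervals held 1. Corrected for length and GC content they became 1.251 for C1qa (1.16 to 1.35), 1.18 for C1qb (1.07 to 1.30) and 1.17 for C1qc (1.07 to 1.28), short of the size rule. For AGNHW over sham C1qa had a ratio of 1.27 (1.17 to 1.38), C1qb 1.01 (0.919 to 1.11) and C1qc 1.04 (0.956 to 1.14). After correction C1qa was at 1.06 (0.976 to 1.15), C1qb at 0.840 (0.766 to 0.922) and C1qc at 0.876 (0.802 to 0.957).

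The share of each chain in the C1q counts of a library does not depend on scaling between libraries. C1qa made up 41.4% of these counts in AGNHW (39.7 to 43.1, exact binomial interval), 40.4% in vehicle (38.5 to 42.2) and 36.3% in sham (34.6 to 38.1). The intervals of AGNHW and vehicle overlapped each other and neither overlapped that of sham. C1qb took 27.6% in AGNHW (26.1 to 29.2), 28.2% in vehicle (26.6 to 29.9) and 30.6% in sham (29.0 to 32.3). C1qc took 30.9% in AGNHW (29.3 to 32.5), 31.4% in vehicle (29.7 to 33.2) and 33.0% in sham (31.4 to 34.8). Transcripts of the chains share 0 windows of 50 bases with each other.

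C1q was also set beside 18 microglial genes. Summed C1q stood at 179 CPM in AGNHW, 186 CPM in vehicle and 160 CPM in sham. The microglial genes summed to 410 CPM in AGNHW, 371 CPM in vehicle and 485 CPM in sham. C1q made up 30.4% of the counts of both sets together in AGNHW (29.5 to 31.2), 33.5% in vehicle (32.5 to 34.5) and 24.8% in sham (24.1 to 25.6). Correction for length and GC content, added after the data were seen, brought the direction of the sums together. The corrected ratio of the C1q sum for vehicle over sham was 0.773, against 1.16 before, and that of the microglial sum was 0.693, against 0.765 before. For AGNHW over sham the corrected ratios were 0.931 for C1q and 0.808 for the microglial genes. The share of C1q, corrected relative to sham, was 27.6% in AGNHW and 27.0% in vehicle, beside the 24.8% in sham, so that most of the gap in vehicle was taken up by the correction. The order of AGNHW and vehicle was thereby reversed, and the corrected shares have no interval. In bulk tissue, fewer cells of a type and less RNA per cell cannot be told apart.

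Among the 18 microglial genes 7 were lower in vehicle than in sham while 0 were higher, beside 14.2% and 8.66% of all genes. The median of their log2 ratios was -0.33, against 0.01 over all genes. P2ry12, a purine receptor of resting microglia, had 78 counts in vehicle against 314 in sham. Cx3cr1, the fractalkine receptor, had 304 in vehicle against 908 in sham. Cd68, Tyrobp and Trem2 went the other way without passing the size rule. Cd68 had 18.1 CPM in vehicle against 12.1 CPM in sham, Tyrobp 9.99 against 7.49 CPM and Trem2 12.6 against 10.8 CPM. After correction only Cd68 among them stayed above 1, at 1.11 (0.924 to 1.32). Corrected for length and GC content the list had 7 lower members, beside 7.03% of all genes, and a median of -0.54, beside corrected log2 ratios of -0.24, -0.49 and -0.42 for C1qa, C1qb and C1qc. For AGNHW over vehicle 3 of the 18 were higher and 0 lower (corrected 2 and 0), beside 4.01% and 2.56% of all genes, with a median of 0.04, and for AGNHW over sham 6 were lower and 0 higher, beside 5.47% and 3.32% of all genes (median -0.25). Border macrophages, which also make C1q, had 6 counted genes summing to 12.6 CPM in AGNHW, 9.73 CPM in vehicle and 14.2 CPM in sham. The part of microglial and macrophage content in the C1q values was not tested.

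**Figure D2:**
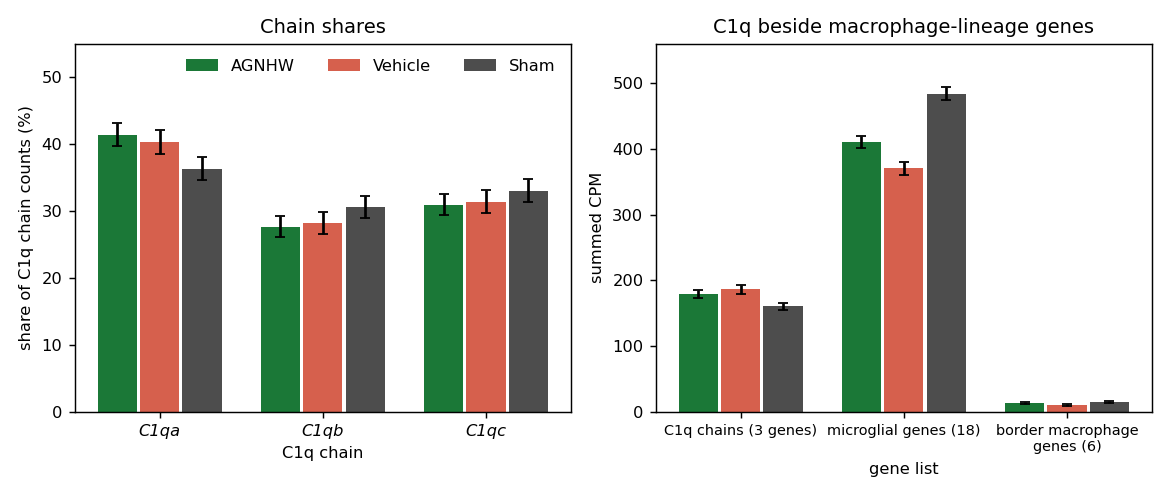
Left, share of C1qa, C1qb and C1qc in the C1q counts of the AGNHW, vehicle and sham libraries, with exact binomial intervals. Right, summed CPM of the C1q chains, 18 microglial genes and 6 border macrophage genes with Poisson counting intervals. C1qa takes 41.4%, 40.4% and 36.3%, and the microglial sum is 410, 371 and 485 CPM in that order.

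C2, the protease that joins C4b fragments in the C3-cleaving enzyme, was the only member that passed the size rule, and it did so in both comparisons with sham. It had 49 counts in AGNHW, 40 in vehicle and 21 in sham, or 2.68, 2.63 and 1.12 CPM. AGNHW and vehicle were close to each other and both lay above sham. C2 was 2.36-fold higher in vehicle than in sham (1.36 to 4.21), and 2.10-fold after correction (1.21 to 3.76). It was 2.40-fold higher in AGNHW than in sham (1.42 to 4.22), and 2.26-fold after correction (1.33 to 3.96). For AGNHW over vehicle the ratio was 1.02 (0.658 to 1.59).

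Only 183 of the compared genes had a larger log2 ratio than C2 for vehicle over sham, and 88 for AGNHW over sham. One of 7 members higher stands beside 8.66% of all compared genes higher for vehicle over sham and 3.32% for AGNHW over sham. With a minimum mean of 5 CPM, C2 was not compared and 0 members passed. In the GENCODE M21 annotation 42.8% of the exonic bases of C2 are shared with Gm20547, a transcript that was not among the counted symbols, and 4.16% with Zbtb12 on the other strand. RefSeq also lists C2 as an older symbol of its neighbour Cfb, which was not among the counted symbols.

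Some marker lists had sums that were lowest in sham, and among reactive astrocyte and leukocyte genes a few made most of the gap to sham. The 18 reactive astrocyte genes, from which the members were left out, summed to 411 CPM in AGNHW, 406 CPM in vehicle and 292 CPM in sham. In vehicle over sham 2 were higher and 4 lower of 16 compared, beside 8.66% and 14.2% of all genes. Fkbp5, a glucocorticoid-responsive gene, had 140 CPM in AGNHW, 145 CPM in vehicle and 54.7 CPM in sham. Lcn2, a lipocalin of reactive astrocytes and neutrophils, had 332 counts in AGNHW, 289 in vehicle and 9 in sham. Without Fkbp5 and Lcn2 the other 16 genes summed to 253 CPM in AGNHW, 241 CPM in vehicle and 237 CPM in sham. Of 14 blood leukocyte genes 6 were counted, summing to 14.4 CPM in AGNHW, 15.5 CPM in vehicle and 10.9 CPM in sham, with S100a8 at 0 in sham. Without S100a8 and S100a9 the other 4 summed to 10.4 CPM in AGNHW, 10.8 CPM in vehicle and 10.7 CPM in sham. Ptprc, the general leukocyte marker among them, was lower in vehicle than in sham, with 8 counts against 38. Red blood cell genes, 5 in number, summed to 65.1 CPM in AGNHW, 163 CPM in vehicle and 52.8 CPM in sham, and 10 general astrocyte genes to 3693, 3664 and 3836 CPM. Of 7 liver plasma protein genes 2 were counted, at 0.986, 1.84 and 0.957 CPM in sum. The pituitary genes summed to 4.60 CPM in AGNHW, 3745 CPM in vehicle and 4.41 CPM in sham. The part of all these lists in the C2 ratios was not tested.

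C3, the component on which all complement pathways converge, was scarce in every library. It had 28 counts in AGNHW, 22 in vehicle and 22 in sham, or 1.53, 1.45 and 1.17 CPM, so that the libraries differed by a handful of reads. Its ratio was 1.06 for AGNHW over vehicle (0.585 to 1.94), 1.24 for vehicle over sham (0.653 to 2.34) and 1.31 for AGNHW over sham (0.724 to 2.41). A difference within these intervals was not detectable at this depth. The C3 promoter is shown because C3 is a classic acute-phase gene and was the scarcest member per length. The capitals mark TTNCGNAA, a letter string bound by C/EBP factors, which was chosen after the sequence was read.
C3 promoter, GRCm38.p6, chr17:57228087-57228386, minus strand: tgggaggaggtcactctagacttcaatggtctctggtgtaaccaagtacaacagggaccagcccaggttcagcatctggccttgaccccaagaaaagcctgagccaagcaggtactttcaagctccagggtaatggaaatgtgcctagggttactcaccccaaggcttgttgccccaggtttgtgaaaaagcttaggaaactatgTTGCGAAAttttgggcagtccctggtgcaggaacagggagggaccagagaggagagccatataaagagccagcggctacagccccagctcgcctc
The string begins 45 bases before the start, and 2.47% of mouse promoters of this length hold it. The strings searched in the C1q promoters are not in this window.

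C4b, whose product supplies the other component of the C3-cleaving enzyme in the classical pathway, was level across the libraries. It had 656 counts in AGNHW, 508 in vehicle and 633 in sham, or 35.9, 33.4 and 33.6 CPM. Its ratio was 1.08 for AGNHW over vehicle (0.956 to 1.21), 0.993 for vehicle over sham (0.882 to 1.12) and 1.07 for AGNHW over sham (0.956 to 1.19), each interval holding 1. Its paralogue C4a is 96.1% identical over 5367 aligned transcript bases and shares 35.2% of the 50-base windows of C4b, so counts of the pair are uncertain. C4a had 65 counts in AGNHW, 39 in vehicle and 58 in sham, and the pair summed to 39.5, 36.0 and 36.7 CPM. C4b held 91.0% of the pair in AGNHW (88.7 to 93.0), 92.9% in vehicle (90.4 to 94.9) and 91.6% in sham (89.3 to 93.6), with overlapping intervals.

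Serping1, which encodes the C1 inhibitor, the main brake on the classical proteases, had 233 counts in AGNHW, 226 in vehicle and 197 in sham. These were 12.8, 14.9 and 10.5 CPM, with vehicle at the top and sham at the bottom. The ratio for vehicle over sham was 1.42 (1.17 to 1.73), short of 1.5-fold, and 1.16 after correction (0.953 to 1.41). For AGNHW over vehicle it was 0.859 (0.712 to 1.04). For AGNHW over sham it was 1.22 (1.004 to 1.48), and 1.10 after correction (0.905 to 1.33). The 9 choroid plexus genes summed to 852 CPM in AGNHW, 1173 CPM in vehicle and 767 CPM in sham. Without Ttr, encoding transthyretin, the other 8 summed to 241 CPM in AGNHW, 259 CPM in vehicle and 269 CPM in sham. Most of that sum was Enpp2, at 191 CPM in AGNHW, 204 CPM in vehicle and 224 CPM in sham. For vehicle over sham 3 of the 9 passed the size rule as higher, namely Ttr, Folr1 and Aqp1, and 0 as lower. Among all genes 8.66% were higher and 14.2% lower. The median log2 ratio of the 9 was 0.28, and the same 3 still passed after correction, beside 4.02% of all genes higher. The 11 meningeal and perivascular fibroblast genes summed to 105 CPM in AGNHW, 90.7 CPM in vehicle and 93.6 CPM in sham, and the 9 endothelial genes to 317, 286 and 273 CPM. Of the endothelial genes 1, Vwf, was higher in vehicle than in sham, at 49.8 against 22.9 CPM. Kdr and Tek were lower, beside the same 8.66% of all genes higher and 14.2% lower. The median log2 ratio of the endothelial list was -0.24. The part of these cells in the Serping1 values was not tested.

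C4b and Serping1 are known to respond to interferon, and the libraries differed widely in interferon-stimulated genes. The 14 listed genes summed to 72.1 CPM in AGNHW, 70.0 CPM in vehicle and 187 CPM in sham. Of the 14, 12 were lower in vehicle than in sham, beside 14.2% of all genes. Irf7, a transcription factor of that response, had 40 counts in AGNHW, 31 in vehicle and 337 in sham. Neither C4b nor Serping1 was lower in vehicle or in AGNHW than in sham by the size rule, which does not register smaller differences. Serping1 measured above sham in both, at 1.42 in vehicle (1.17 to 1.73) and 1.22 in AGNHW (1.004 to 1.48). After correction both Serping1 intervals held 1, and those of C4b held 1 before and after it. The part of the interferon response in the C4b and Serping1 values was not tested.

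As a group, 0 of 7 members passed the size rule for AGNHW over vehicle, beside 6.57% of all genes (4.01% higher and 2.56% lower), with a median log2 ratio of -0.022 against 0.0020 over all genes. For vehicle over sham 1 passed, beside 22.8% of all genes (8.66% higher and 14.2% lower), with a median of 0.25 against 0.01. For AGNHW over sham 1 passed, beside 8.79% (3.32% higher and 5.47% lower), with a median of 0.28 against -0.00066. Corrected for length and GC content the medians of the members were 0.11, -0.06 and 0.08 in the same order, with 0, 1 and 1 passing beside 4.76% (3.17% higher and 1.59% lower), 11.1% (4.02% and 7.03%) and 5.92% (2.57% and 3.35%) of all genes. The counting interval excluded 1 for 0 of 7 members in AGNHW over vehicle, 4 of 7 in vehicle over sham and 3 of 7 in AGNHW over sham, each time above 1. After correction it lay above 1 for 3 members and below for 0 in AGNHW over vehicle, above for 1 and below for 3 in vehicle over sham, and above for 1 and below for 2 in AGNHW over sham. The C1q chains made up the members above 1 in AGNHW over vehicle and all those below 1. Among all compared genes, before correction, it excluded 1 on either side for 42.7%, 62.3% and 48.1%, and was above 1 for 20.7%, 31.6% and 23.7%. These shares were not computed after correction, so the corrected member counts have no background beside them. With a fold limit of only 25% change 0, 3 and 2 members passed, beside 19.6%, 45.8% and 24.5% of all genes.

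**Figure D3:**
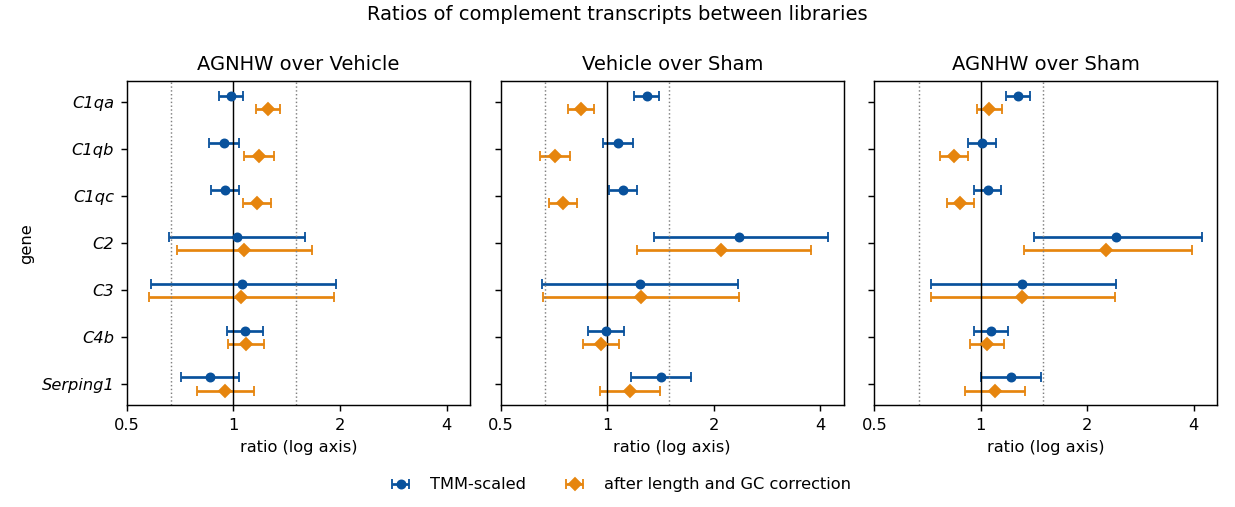
Ratio of each complement gene for AGNHW over vehicle, vehicle over sham and AGNHW over sham, on a log axis, before (circles) and after (diamonds) correction for transcript length and GC content. Bars are 95% counting intervals, the solid line is 1 and dotted lines are 1.5-fold either way. C2 is beyond 1.5-fold in both comparisons with sham, and the C1q chains change sides of 1 with the correction in vehicle over sham.

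The correction moved the C1q chains more than C4b or C3, as the plot of log2 ratio against transcript length shows. C1qa, C1qb and C1qc have transcripts of 1040, 1088 and 1203 bases, near the median of 1031 bases in the shortest of 10 bins of genes, where the median log2 ratio for vehicle over sham was 0.47. C3 and C4b have 5136 and 5379 bases, and their fitted trend ratios for vehicle over sham were 0.992 and 1.03. C2, at 2641 bases, had a fitted trend ratio of 1.12 against its measured 2.36.

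**Figure D4:**
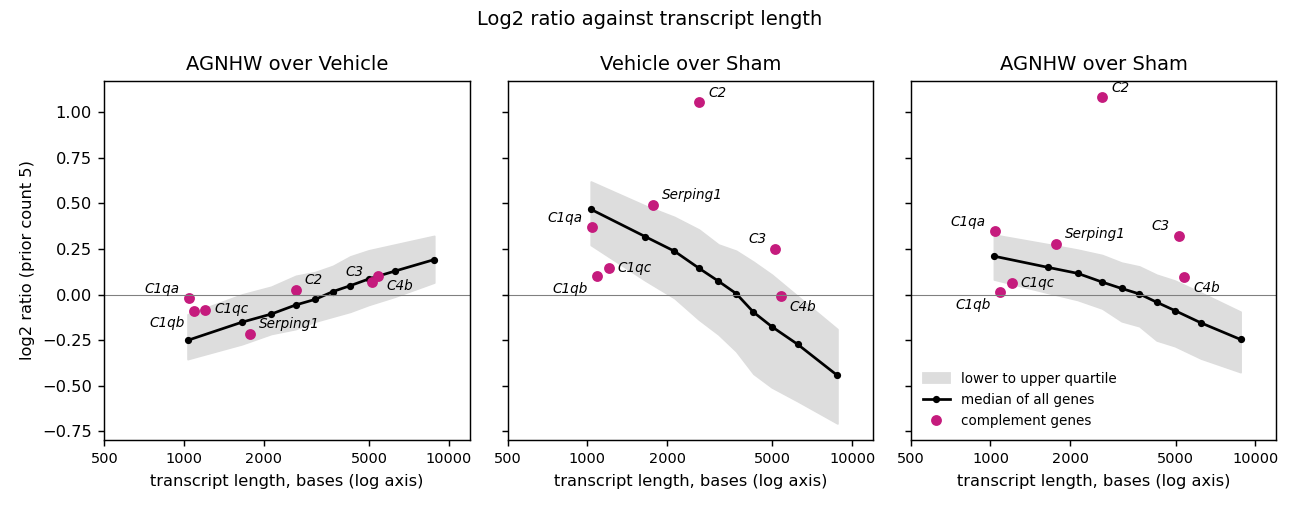
Log2 ratio against transcript length in bases (log axis) for AGNHW over vehicle, vehicle over sham and AGNHW over sham. The black line gives medians of all genes of at least 10 CPM in 10 equal bins of length, the grey band the range between the quartiles, and points the 7 complement genes. In vehicle over sham the median goes down with length to -0.44 in the longest bin, and C2 lies far above it.

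Of 61 other complement genes listed by role, 42 were counted and 37 compared. For AGNHW over vehicle 1 of 37 was higher and 1 lower, with a median log2 ratio of 0.07, beside 6.57% of all genes passing. For vehicle over sham 1 was higher and 3 were lower (median -0.02), and for AGNHW over sham 2 were higher and 2 were lower (median -0.06). In those comparisons 22.8% and 8.79% of all genes passed. Cfb, Cfd, Hc, C6, C8a, C8b, C9, Mbl1, Mbl2, Fcnb, Colec10, Cfi, C4bp, Cpn2, C1rb, Cd55b, Vsig4, Cr2 and Itgax were not among the counted symbols.

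The proteases that act with C1q were scarce and passed in no comparison. C1ra, encoding C1r, had 62 counts in AGNHW, 48 in vehicle and 70 in sham. C1s1, encoding C1s, had 39, 26 and 27 counts in the same libraries. Masp1, a protease of the lectin pathway, had 299 counts in AGNHW, 316 in vehicle and 360 in sham, and Cfp, encoding properdin of the alternative pathway, had 225, 222 and 276.

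In the terminal pathway, C8g, which encodes the gamma chain of C8, was higher in both comparisons with sham. It had 65 counts in AGNHW, 65 in vehicle and 42 in sham, with ratios of 1.91 for vehicle over sham (1.28 to 2.89) and 1.59 for AGNHW over sham (1.07 to 2.41). After correction both ratios were 1.36 and no longer passed.

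Cd59a, the membrane protein that stops assembly of the membrane attack complex, was the one soluble or membrane regulator that passed the size rule. It had 165 counts in AGNHW, 281 in vehicle and 281 in sham, or 9.03, 18.5 and 14.9 CPM. AGNHW thus stood apart from the other libraries. Cd59a was 2.04-fold lower in AGNHW than in vehicle (1.68 to 2.49) and 1.65-fold lower in AGNHW than in sham (1.36 to 2.02), and it passed in both after correction, with ratios of 0.476 (0.390 to 0.579) and 0.614 (0.504 to 0.747). Its paralogue Cd59b had 19, 16 and 31 counts in AGNHW, vehicle and sham, and reads may be shared between them. Cr1l, the mouse membrane regulator Crry, did not pass, with 14.9 CPM in AGNHW, 13.9 CPM in vehicle and 15.6 CPM in sham. Among soluble regulators, Clu, encoding clusterin, had 1147 CPM in AGNHW, 1259 CPM in vehicle and 922 CPM in sham, without passing in any comparison.

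Of 9 receptors compared, 0 passed for AGNHW over vehicle, beside 6.57% of all genes. In vehicle over sham and AGNHW over sham 1 passed each, beside 22.8% and 8.79% of all genes. After correction 0 passed in any comparison, beside 4.76%, 11.1% and 5.92% of all genes. Itgam, the alpha chain of complement receptor 3 on microglia and myeloid cells, was 1.71-fold lower in vehicle than in sham (1.13 to 2.63), with 35 counts against 74, and its corrected ratio of 0.668 had an interval of 0.434 to 1.01. C5ar1, the receptor of the inflammatory fragment C5a, was 1.80-fold higher in AGNHW than in sham (1.01 to 3.30), with 35 counts against 20; with plain CPM or after correction it did not pass. C3ar1, the receptor of C3a, had 31 counts in AGNHW, 29 in vehicle and 47 in sham and did not pass.

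Among neuronal proteins that restrain complement, Csmd1 was 1.83-fold lower in vehicle than in sham (1.62 to 2.07), with 383 counts against 866. Csmd3, a member of the same family, was 2.71-fold lower (2.05 to 3.63), with 65 counts against 218. Csmd3 was 1.77-fold higher in AGNHW than in vehicle (1.31 to 2.41), with 138 counts against 65, and 1.53-fold lower in AGNHW than in sham (1.23 to 1.91). After correction only Csmd3 in vehicle against sham still passed among these calls, with a ratio of 0.635 (0.474 to 0.841). Nptx2, a neuronal pentraxin that binds C1q, had 49.2 CPM in AGNHW, 48.8 CPM in vehicle and 65.3 CPM in sham, and passed as lower in vehicle than in sham only after correction, at 0.593 (0.540 to 0.650).

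**Figure D5:**
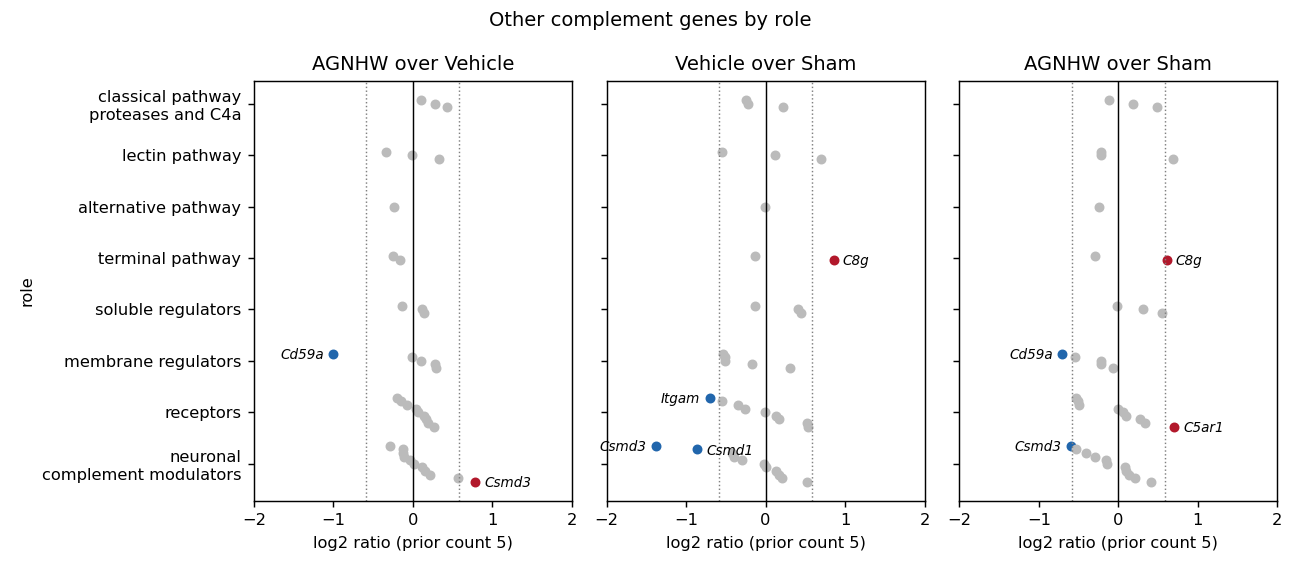
Log2 ratio of 37 other complement genes, in rows by role, for AGNHW over vehicle, vehicle over sham and AGNHW over sham. Red and blue points passed the size rule as higher and lower, grey points did not, and dotted lines are 1.5-fold either way. Cd59a is lower in both AGNHW comparisons, and Csmd3 passes in all 3.

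To see which genes had patterns like the members', the 3 log2 CPM values of each gene were centred and compared by Euclidean distance over 3 libraries among 13881 named genes. C2 had only 6 genes within 0.1, of which Gjd3 (0.068), Nde1 (0.074) and Slc41a3 (0.077) were nearest. Nde1, a partner of dynein needed by dividing neural progenitors, had 44.5 CPM in AGNHW, 44.3 CPM in vehicle and 22.4 CPM in sham. The other members had between 641 and 1661 genes within 0.1, so likeness over 3 libraries singles out little. Their nearest genes were Rhbdl3 for C1qa, Sumf2 for C1qb, Inpp5a for C1qc, Mir9-3hg for C3, Myo5b for C4b and Cdkn1c for Serping1.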

How the data were processed

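Total RNA of mouse brain was sequenced on an Illumina HiSeq instrument, per the labels and design text, as 1 library each for AGNHW, vehicle and sham, grouped by title. The deposited values are raw counts of reads for each gene symbol, as whole numbers. The submitters' processing notes name the tools Bowtie2 2.2.3, TopHat2 2.0.12 and HTSeq 0.6.0 and the build mm9. The sources used here do not give settings, annotation or strand mode. The lowest sum of a listed gene was 21 counts, so rarer genes had been left out.

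Counts were scaled with TMM (edgeR 4.0.16, R 4.3.3; Python 3.11.15, scipy 1.17.1). Ratios have exact conditional binomial intervals at 95%, counts exact Poisson intervals, and reads without molecular identifiers may vary more. Having 1 library per group, the conditions could not be tested. Log2 ratios used a prior count of 5. The length and GC correction fitted cubic terms in log length and GC content (longest GENCODE M21 transcript, found for 97.6% of symbols) over 9941 genes of at least 10 CPM. Alternatives were plain CPM, DESeq2 1.42.0 size factors, upper-quartile scaling, other filters, fold limits and a prior count of 1. The size rule was tried on simulated counts with counting error only. These held no variation between mice and no length trend, so they bear on counting error alone.

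Named genes were all members, listed complement genes that passed the size rule, leading members of marker lists and the 3 nearest patterns; others were added for their roles after their values were seen. The members and lists were chosen with earlier results of these data known. Promoters come from RefSeq GRCm38.p6, a later build than mm9, and no coordinate was used with the counts.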

Additional observations from a re-analysis of the deposited data

How the results depend on the processing

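Of 105 member log2 ratios recomputed under alternatives, 95 stayed inside the counting interval of the reported value. The other 10 all came from the length and GC correction. It gave log2 ratios of 0.32, 0.24 and 0.22 for C1qa, C1qb and C1qc in AGNHW over vehicle. In vehicle over sham they were -0.24, -0.49 and -0.42, and 0.20 for Serping1. In AGNHW over sham they were 0.079, -0.25 and -0.19. C2 passed in both comparisons with sham under every scaling and both fold limits tried, and under the correction. A minimum mean of 5 CPM left 0 members passing in either comparison with sham. A limit of 25% change gave 3 members in vehicle over sham (C1qa, C2 and Serping1, beside 45.8% of all genes) and 2 in AGNHW over sham (C1qa and C2, beside 24.5%).

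Counts over all genes moved by more than 1.5 times as follows. For AGNHW over vehicle, the correction gave 242 lower, the minimum of 5 CPM 295 higher and 126 lower, the limit of 25% change 1732 and 1315, and the 2-fold limit 175 and 116. For vehicle over sham, plain CPM gave 890 higher, the correction 613 higher and 1071 lower, the minimum of 5 CPM 882 higher, the limit of 25% change 3377 and 3747, and the 2-fold limit 307 and 711. For AGNHW over sham, the correction gave 511 lower, the minimum of 5 CPM 206 higher and 445 lower, the limit of 25% change 1540 and 2266, and the 2-fold limit 179 and 192. Changes with a limit follow from its construction, and the cause of the others was not tested.

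Without Csf1r, the most abundant microglial gene, the share of C1q was 35.4% in AGNHW, 38.9% in vehicle and 28.6% in sham, in the same order. Corrected for length and GC content relative to sham, the share was 27.6% in AGNHW and 27.0% in vehicle, an alternative added after the data were seen. In it AGNHW and vehicle changed order. No paired analysis was possible because each group has 1 library. Leaving out a library leaves no comparison with its group. Depth limits C2 and C3 most, with 21 to 49 counts per library.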
